A study of Mus musculus with 6 samples.

Results

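Fatty acid synthesis, elongation and desaturation were followed in mouse colon through 10 genes picked by name from the 23282 genes of the deposited table: the synthase Fasn, the elongases Elovl1, Elovl4, Elovl5, Elovl6 and Elovl7, and the desaturases Scd1, Scd2, Fads1 and Fads2. The set was built around Elovl6, which was picked because it rose with pregnenolone 16α-carbonitrile (PCN), so the PCN response of Elovl6 is given as a description without a test. The other 9 were taken as its family and pathway for comparison. RNA came from whole colon of wild-type C57BL/6J mice, 8 weeks old, in 3 control libraries given vehicle (replicates 3, 5 and 6) and 3 libraries given PCN (replicates 4, 5 and 6). PCN, a steroid that activates the rodent pregnane X receptor (PXR), was injected intraperitoneally at 40 mg/kg in DMSO and corn oil, 3 times at intervals of 8 h, and the colon was taken 8 h after the last dose. No PXR knockout library was analysed here, so the dependence of any value on PXR was not measured. Whole colon mixes cell types, and more RNA per cell cannot be told apart from more cells of the type that makes it. The labels do not say if the libraries are from separate mice, and p-values therefore measure the spread between libraries. Levels are given in the order of vehicle replicates 3, 5 and 6, then PCN replicates 4, 5 and 6.

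Fatty acid synthase, the product of Fasn, builds palmitate from acetyl-CoA and malonyl-CoA. In the endoplasmic reticulum, ELOVL enzymes carry out the first and rate-limiting step of each round that lengthens a fatty acid, and every family member prefers its own chain lengths. ELOVL6 extends palmitate to stearate, the stearoyl-CoA desaturases SCD1 and SCD2 turn stearate into oleate, and FADS2 and FADS1 place the double bonds of polyunsaturated fatty acids. Transcription of Fasn, Elovl6, Scd1 and the Fads genes is raised by the sterol regulatory element binding protein SREBP-1c, encoded by Srebf1, and by liver X receptors. In mouse liver, activation of PXR is known to raise lipid uptake and synthesis genes such as Cd36 and Scd1.

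All 10 genes were found in the table and all passed the filter on low counts. The libraries held 21924026 to 25422856 counts, with 20538 to 20963 genes detected. Counts were scaled to CPM, that is, relative to library size with edgeR's TMM factors, and 16586 genes were tested with edgeR's quasi-likelihood test and Benjamini-Hochberg adjustment. With an adjusted p under 0.05 as the threshold, edgeR found 5 genes higher after PCN (0.0301%) and 1 lower (0.00603%), and DESeq2 found 171 higher (1.03%) and 43 lower (0.259%). Drug metabolism genes known to respond to PXR were set out as a check of treatment. The CPM of all 9 was higher in each PCN library than in each vehicle library, as for 8.69% of all genes. These 9 were chosen with earlier results of these data known, so the check is not independent. Among them, Cyp2c55, a cytochrome P450 of the intestine, had 2334, 1070.0 and 1136 CPM after vehicle and 4690.1, 5017 and 3634 CPM after PCN. By edgeR its log2 fold change was 1.56 (adjusted p = 0.188), and by DESeq2 it passed (adjusted p = 6.79e-06). Akr1b7, an aldo-keto reductase, passed edgeR with a log2 fold change of 2.18 (adjusted p = 0.0460), and Cyp3a44 had 3.41 (adjusted p = 0.0627). Cyp3a11, much studied in liver, was scarce, at 0 to 1.86 CPM. Alas1, Abcb1a, Ces2a, Gstm3 and Cyp3a25, the other genes of the check, had edgeR log2 fold changes of 1.46, 1.18, 1.72, 1.73 and 2.35 (adjusted p = 0.0786, 0.125, 0.167, 0.125 and 0.140 from edgeR), and DESeq2 called all 5 higher. Of 11 colon epithelium genes, all averaged at least 1 CPM, and Muc2 alone gave 14066 to 25743 CPM.

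The promoter bases before the first annotated base are shown for Elovl6, for Fasn, whose pattern over the libraries lay nearest to that of Elovl6 among the members, and for Elovl5, an elongase with overlapping groups. RefSeq (GRCm38.p6) gave promoter windows for 7 of the 10 members; none was matched for Scd1, Scd2 and Fads1. The sequences run 5′ to 3′ on the strand of the gene, with motif matches in capitals, at chr3:129532136-129532354 (plus strand, Elovl6), chr11:120824548-120824797 (minus strand, Fasn) and chr9:77917115-77917363 (plus strand, Elovl5).
Elovl6: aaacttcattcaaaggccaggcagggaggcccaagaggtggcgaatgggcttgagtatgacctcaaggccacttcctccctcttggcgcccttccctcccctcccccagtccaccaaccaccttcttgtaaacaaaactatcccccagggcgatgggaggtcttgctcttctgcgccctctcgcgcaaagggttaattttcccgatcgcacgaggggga
Fasn: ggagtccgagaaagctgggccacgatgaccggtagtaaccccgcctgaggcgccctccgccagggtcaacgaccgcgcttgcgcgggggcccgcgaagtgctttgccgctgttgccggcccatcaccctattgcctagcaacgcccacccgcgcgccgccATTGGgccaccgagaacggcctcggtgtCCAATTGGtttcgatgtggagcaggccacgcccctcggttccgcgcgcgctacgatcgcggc
Elovl5: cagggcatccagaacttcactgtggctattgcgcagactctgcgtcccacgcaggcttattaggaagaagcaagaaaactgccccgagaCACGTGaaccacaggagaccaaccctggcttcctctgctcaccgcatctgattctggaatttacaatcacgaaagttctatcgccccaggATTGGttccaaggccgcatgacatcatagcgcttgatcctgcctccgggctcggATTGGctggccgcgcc
In the 250 bases before the RefSeq start, on both strands, a script searched for the sterol regulatory element TCACNCCAC, the CCAAT box CCAAT, the GC box GGGCGG and the E-box CACGTG. These were found in 1.05%, 33.8%, 32.7% and 6.02% of 32851 mouse promoter windows. Elovl6 held none of the 4. Its printed run is 219 bases long because the GENCODE gene begins before the RefSeq start. Fasn held 3 CCAAT boxes, 90, 62 and 59 bases before the start, of which the last 2 overlap on opposite strands. Elovl5 held CCAAT boxes at 71 and 17 bases and an E-box at 161 bases. None of the 7 members had the sterol element or DR4 in this window. A missing match says only that these letters do not occur there.

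Elovl6 (ENSMUSG00000041220) was 1.71-fold higher in PCN colon than in vehicle colon, and its vehicle libraries were nearly alike. It had 101, 99.8 and 98.4 CPM after vehicle and 182, 171 and 159 CPM after PCN. The groups lay far apart, with the lowest PCN library well above the highest vehicle library. The means were 99.7 ± 1.23 CPM after vehicle and 170.5 ± 11.5 CPM after PCN (SD, n = 3 per group), a log2 fold change of 0.77 with a standard error of 0.08. With each library left out in turn the log2 fold change stayed between 0.73 and 0.80. In GRCm38, Elovl6 occupies positions 129532355 to 129638495 of chromosome 3, plus strand. It overlaps Gm35986 on the opposite strand, which had at most 0.0826 CPM in any library, and Gm43072, which is not in the table.

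Of the 8 genes that mark dividing cells, summed CPM was 280, 263 and 192 after vehicle and 401, 237 and 440.1 in PCN replicates 4, 5 and 6. These sums overlapped, all 8 genes had a higher mean after PCN and none was at 0. Mcm2, Mcm3 and Pcna, which act in DNA replication, had higher levels after PCN without overlap between the groups, and the other 5 overlapped. Over all tested genes, 8.69% were higher and 7.39% lower without overlap, and 51.6% had a positive log2 fold change. The part of dividing cells in the Elovl6 values was not tested. Among 14920 genes that averaged at least 1 CPM, the 5 whose centred log2 CPM over the 6 libraries lay nearest to Elovl6 were Ung, Mcm2, Bcl3, Atp2b1 and Morrbid, at root mean square distances of 0.080, 0.087, 0.096, 0.098 and 0.11. Mcm2, a subunit of the replicative helicase, had 19.1, 19.5 and 16.7 CPM after vehicle and 33.8, 33.3 and 33.3 CPM after PCN. Ung, a uracil-DNA glycosylase, had 9.09, 8.04 and 8.43 CPM after vehicle and 17.2, 16.6 and 15.2 CPM after PCN. The nearest member was Fasn, the 204th in this order (distance 0.21), followed by Fads2 (0.27, place 730) and Fads1 (0.28, place 796). Scd2 and Elovl4 were the farthest of the members (0.50 and 0.59). These distances were taken over the same 6 libraries in which Elovl6 was picked because it rose. Genes with a like PCN difference therefore come first, and nothing is read from this order.

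**Figure D1:**
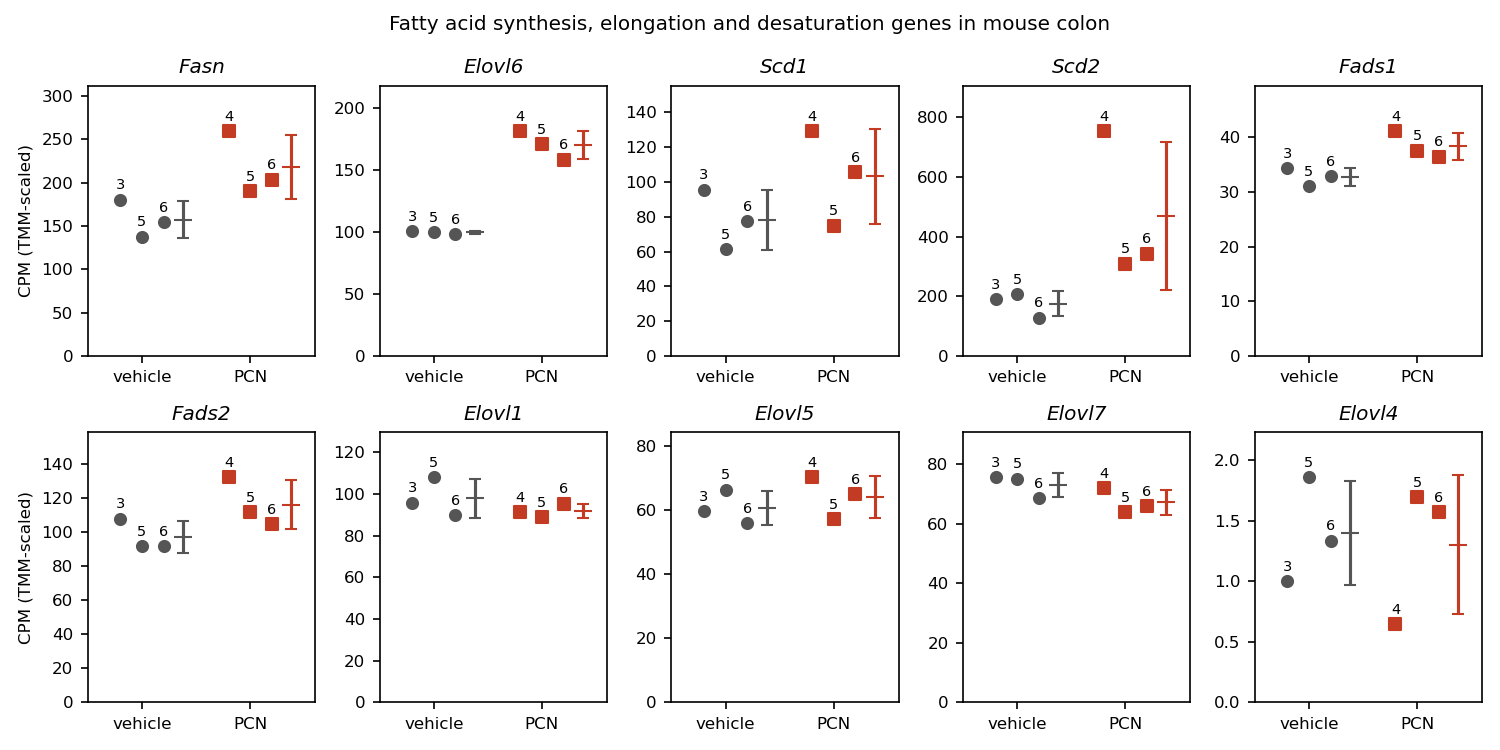
CPM of the 10 members in each library, with the replicate number beside each point, vehicle as grey circles and PCN as red squares, and the mean with its SD (n = 3) to the right of each group. Elovl6 sits at 98.4 to 101 CPM in vehicle and 159 to 182 CPM in PCN, and for Scd2 PCN replicate 4 stands at 755 CPM, far above the other libraries.

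Fasn, the source of the palmitate on which ELOVL6 acts, was 1.38-fold higher on average in PCN colon, and did not pass the test. It had 180.2, 137 and 155 CPM after vehicle and 259.5, 190.2 and 203 CPM after PCN. The groups did not overlap, but vehicle replicate 3 came close to PCN replicate 5. For Fasn, edgeR estimated 0.47 ± 0.14 on the log2 scale (standard error), with an interval of 0.14 to 0.80 at 95% confidence (adjusted p = 0.391 from edgeR, 0.149 from DESeq2). Fasn (ENSMUSG00000025153) occupies positions 120805846 to 120824547 of chromosome 11 in GRCm38, minus strand, with no overlapping gene. The ratio of Elovl6 to Fasn within a library, taken from the authors' FPKM (counts relative to gene length and library size), was 0.953, 1.24 and 1.08 after vehicle and 1.19, 1.53 and 1.33 after PCN. These ratios overlapped, since PCN replicate 4 lay below vehicle replicate 5.

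Scd2 had the largest fold difference of the 10 genes, and within the PCN group the largest coefficient of variation, 52.8%. Its level was 189.9, 207 and 128 CPM after vehicle and 755, 309.9 and 343 CPM after PCN. All 3 PCN libraries were above the vehicle libraries, and PCN replicate 4 stood far above the other PCN libraries. The means of 175 ± 41.6 and 469 ± 248 CPM (SD, n = 3 per group) gave a log2 fold change of 1.423 (standard error 0.34, 95% confidence interval 0.64 to 2.21), which did not pass (adjusted p = 0.288 from edgeR, 0.122 from DESeq2). With PCN replicate 4 left out, edgeR gave Scd2 a log2 fold change of 0.90 (adjusted p = 0.396). Scd2 (ENSMUSG00000025203) occupies positions 44293674 to 44306864 of chromosome 19 in GRCm38, plus strand, and holds the microRNA gene Mir5114 on the same strand.

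Scd1, the main desaturase of liver, lies near Scd2 on chromosome 19 (44394455 to 44407879, minus strand), with Scd4 between them. The groups of Scd1 overlapped. It had 95.5, 61.5 and 77.3 CPM after vehicle and 129, 74.8 and 106 CPM after PCN. PCN replicate 5 fell below 2 of the vehicle libraries. Scd1 did not pass, with a log2 fold change of 0.40 ± 0.22 (standard error) and an interval of -0.09 to 0.90 at 95% confidence (adjusted p = 0.561 from edgeR). The ratio of Scd2 to Scd1 FPKM was 1.78, 3.02 and 1.48 after vehicle and 5.22, 3.71 and 2.91 after PCN, with PCN replicate 6 just under vehicle replicate 5. The ratio of Scd1 to Fasn FPKM held between 0.880 and 1.19 in all 6 libraries. The stearoyl-CoA desaturase genes are alike in sequence, and reads that fit more than 1 of them may be counted unevenly.

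Smooth muscle genes and fat cell genes were summed beside Scd2, since either tissue could come with whole colon. The 8 smooth muscle genes gave 2605, 1605 and 1698 CPM after vehicle and 5015, 3291 and 1464 CPM after PCN. PCN replicate 4 was the highest library in both. PCN replicate 6 had the lowest smooth muscle sum, and its Scd2 level was above every vehicle library. All 8 had a higher mean after PCN and none was at 0. Over all tested genes, 51.6% of log2 fold changes were positive and 48.4% negative. The 10 fat cell genes gave 181 to 389.7 CPM after vehicle and 232 to 344 CPM after PCN, overlapping, with 8 of 10 lower on average after PCN. Adipoq, which defines fat cells, was present at 3.22 to 10.8 CPM. The part of smooth muscle in the Scd2 values was not tested.

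Fads1 and Fads2, which lie side by side on chromosome 19, kept a steady ratio to each other. Fads1 had 34.3, 31.0 and 32.9 CPM after vehicle and 41.2, 37.5 and 36.5 CPM after PCN, without overlap. Fads2 had 108, 91.8 and 91.7 CPM after vehicle and 132, 111.5 and 104.5 CPM after PCN, and PCN replicate 6 lay under vehicle replicate 3. The log2 fold changes were 0.23 for Fads1 (95% confidence interval 0.0018 to 0.46, adjusted p = 0.496 from edgeR) and 0.26 for Fads2 (95% confidence interval -0.0050 to 0.52, adjusted p = 0.5003 from edgeR), and neither passed. The Fads2 to Fads1 ratio of FPKM was 4.32 ± 0.260 after vehicle and 4.40 ± 0.255 after PCN (SD, n = 3 per group). Fads1 (ENSMUSG00000010663) runs from 10182888 to 10196877 on the plus strand and holds Mir6993, and Fads2 (ENSMUSG00000024665) from 10062765 to 10101746 on the minus strand with no overlapping gene, both in GRCm38.

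The elongases other than Elovl6 had overlapping groups and log2 fold changes near 0. Elovl1, which makes saturated very long chains for sphingolipids, had 95.8, 108 and 90.0 CPM after vehicle and 91.2, 88.8 and 95.4 CPM after PCN (log2 fold change -0.09, 95% confidence interval -0.30 to 0.12, adjusted p = 0.751 from edgeR). Elovl5, which extends polyunsaturated fatty acids, had 59.7, 66.5 and 56.1 CPM after vehicle and 70.3, 57.3 and 65.0 CPM after PCN (log2 fold change 0.08, 95% confidence interval -0.17 to 0.33, adjusted p = 0.828 from edgeR). Elovl7, an elongase of saturated long chains, had 75.5, 75.1 and 68.5 CPM after vehicle and 71.9, 63.8 and 65.8 CPM after PCN (log2 fold change -0.12, 95% confidence interval -0.32 to 0.08, adjusted p = 0.661 from edgeR). The differences between Elovl6 and the other elongases were not tested, because Elovl6 was picked for its response.

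Elovl4, best known from retina and skin, was near the limit of detection with 22, 45 and 34 counts after vehicle and 16, 41 and 37 counts after PCN. Its log2 fold change of -0.11 had a 95% confidence interval of -1.13 to 0.92 (adjusted p = 0.957 from edgeR), so that a change by as much as 0.92 upward on the log2 scale could not be seen at this depth. Elovl2, the elongase of long polyunsaturated chains, had 1 to 13 counts per library. Elovl3, of skin and brown fat, had 0 counts in all 3 vehicle libraries and 1, 0 and 2 counts after PCN, and Scd3 had 0 to 4 counts. These 3 genes did not pass the filter. Elovl1 overlaps Cdc20, a cell division gene on the opposite strand with 8.96 to 30.4 CPM, and whether the counting used strand is not stated, so shared reads cannot be told apart. Elovl1 (ENSMUSG00000006390) lies on chromosome 4 from 118428093 to 118432953, Elovl4 (ENSMUSG00000032262) on chromosome 9 from 83778692 to 83806277, Elovl5 (ENSMUSG00000032349) on chromosome 9 from 77917364 to 77984519 and Elovl7 (ENSMUSG00000021696) on chromosome 13 from 108214404 to 108285683, all in GRCm38. Elovl7 overlaps Gm32376 and Gm30747 on the opposite strand, which are not in the table.

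Levels of different genes were compared per length, in FPKM. In vehicle colon Elovl1 (36.4 ± 2.87), Scd2 (32.4 ± 7.13) and Fads2 (29.9 ± 2.58) led, and Scd2 overlapped both of the others. Elovl7 (18.5 ± 0.613), Elovl5 (17.5 ± 1.25), Scd1 (16.2 ± 3.50), Elovl6 (15.7 ± 0.185) and Fasn (14.6 ± 1.97) followed, each overlapping its neighbours in this order, although Elovl7 lay above Elovl6 in every vehicle library. Fads1 (6.91 ± 0.390) and Elovl4 (0.468 ± 0.142) were lowest (FPKM, SD, n = 3 each). In PCN colon Scd2 (84.3 ± 44.2) came first and Elovl6 (26.1 ± 1.72) moved from place 7 to place 4 (FPKM, SD, n = 3). Of the summed FPKM of the 5 elongases, Elovl6 made up 18.0%, 16.6% and 18.7% after vehicle and 28.3%, 28.9% and 26.0% after PCN. Elovl1 remained the most abundant elongase, at 41.1% ± 1.18 after vehicle and 35.3% ± 1.66 after PCN (SD, n = 3 per group).

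**Figure D2:**
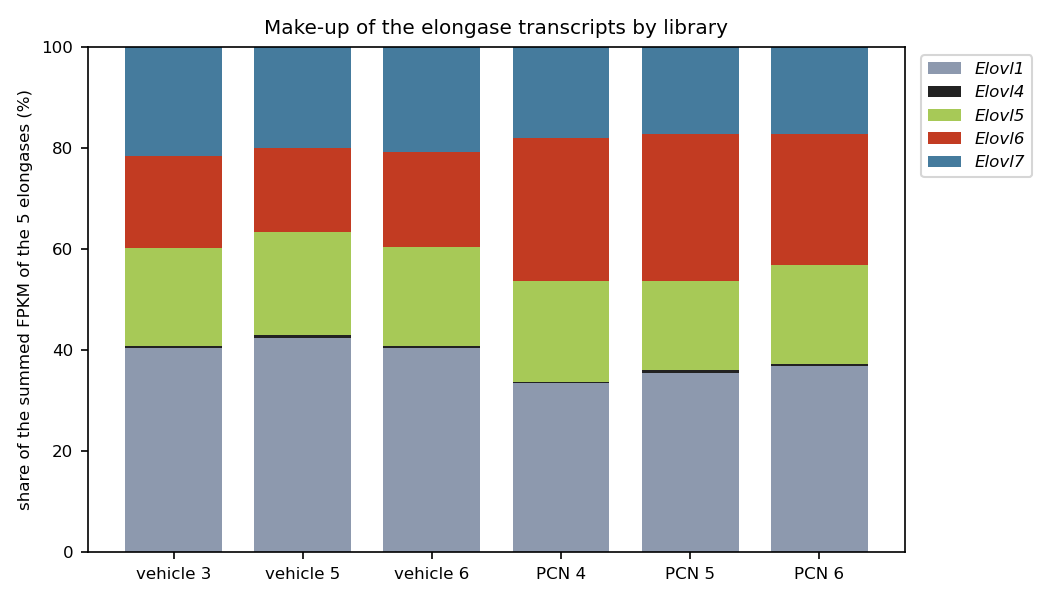
Share of the summed FPKM of the 5 elongases held by each, as stacked bars, 1 bar per library. The Elovl6 segment spans 16.6% to 18.7% in the vehicle libraries and 26.0% to 28.9% in the PCN libraries, and Elovl4 is a thin line.

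The mean was above vehicle for 7 of the 10 members by edgeR and below it for 3. The median log2 fold change of the 10 was 0.24, beside 0.0085 over all 16586 genes, of which 51.6% were positive and 48.4% negative. The values of the 10 include Elovl6, which was picked because it rose, so nothing is read from them. At an unadjusted p under 0.05 from edgeR, 3 of the 9 members other than Elovl6 were higher (Scd2, Fasn and Fads1) and none lower, where 6.25% of all genes were higher and 3.73% lower; nothing is read from this, since the set was chosen on this comparison. The same 3 genes had groups that did not overlap, against 8.69% of all genes with every PCN library higher and 7.39% with every PCN library lower. PCN replicate 4 was the highest of the 6 libraries for 7 members (Elovl5, Elovl6, Fads1, Fads2, Scd1, Scd2 and Fasn) and the lowest for Elovl4. Without PCN replicate 4 the log2 fold change of Fasn was 0.32, that of Scd1 0.21 and that of Fads2 0.15. Of the 9 members other than Elovl6, none passed edgeR or DESeq2 at an adjusted p under 0.05.

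**Figure D3:**
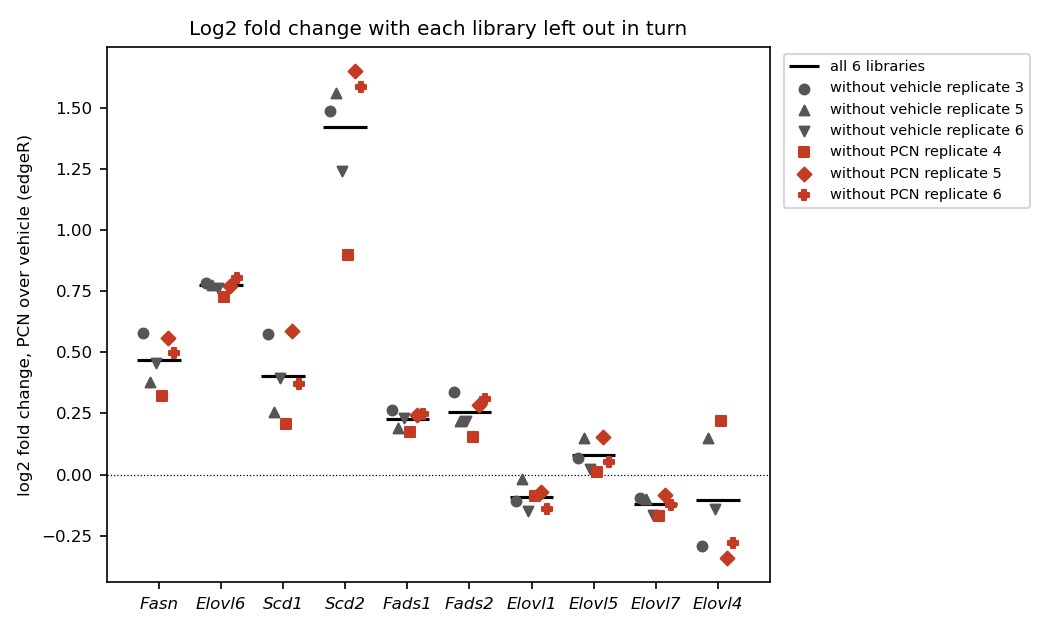
The log2 fold change of PCN over vehicle for each member, with all 6 libraries (black line) and with each library left out in turn (grey symbols for vehicle, red for PCN). Elovl6 stays between 0.73 and 0.80, while Scd2 ranges from 0.90 without PCN replicate 4 to 1.65 without PCN replicate 5.

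Genes of malonyl-CoA and NADPH metabolism showed no call by edgeR or DESeq2 among 13 tested. Their median log2 fold change was 0.17. The list includes Mlycd, which breaks malonyl-CoA down (log2 fold change -0.19, adjusted p = 0.545 from edgeR). Mlycd was lower in every PCN library than in each vehicle library, as were 7.39% of all tested genes. By unadjusted p (under 0.05, edgeR), 6.25% of all genes were higher and 3.73% lower. Of these 13 genes, 3 were higher and 0 lower. They were Me1, the malic enzyme that makes NADPH (log2 fold change 0.46, adjusted p = 0.378 from edgeR), Acacb, the acetyl-CoA carboxylase at mitochondria (0.54, adjusted p = 0.379 from edgeR), and Slc25a1, the mitochondrial citrate exporter (0.30, adjusted p = 0.397 from edgeR). Me1 had 39.4, 35.3 and 27.6 CPM after vehicle and 46.2, 45.0 and 49.4 CPM after PCN, without overlap. Acaca, the cytosolic carboxylase that feeds FASN, had 61.4, 50.2 and 53.3 CPM after vehicle and 62.7, 56.4 and 64.4 CPM after PCN (log2 fold change 0.15, 95% confidence interval -0.09 to 0.40, adjusted p = 0.638 from edgeR). Acly, which makes cytosolic acetyl-CoA from citrate, had a log2 fold change of 0.05 (95% confidence interval -0.23 to 0.33, adjusted p = 0.910 from edgeR). Both groups overlapped for these 2 genes.

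The enzymes that complete each elongation round and carry electrons to the desaturases had a median log2 fold change of 0.05 over 9 genes, with none past an unadjusted p of 0.05 from edgeR and none called by DESeq2. Hsd17b12, the ketoacyl-CoA reductase of the round, had 83.6, 86.5 and 68.1 CPM after vehicle and 102, 79.4 and 106 CPM after PCN (log2 fold change 0.27, adjusted p = 0.534 from edgeR). Tecr, which completes the round, had a log2 fold change of -0.05 (95% confidence interval -0.26 to 0.15, adjusted p = 0.867 from edgeR). Hacd2, a dehydratase of the round, was lower in all 3 PCN libraries (-0.24, adjusted p = 0.496 from edgeR). Of the 6 other elongases and desaturases, 3 were tested (Scd4, Fads3 and Fads6), with log2 fold changes of 0.36, -0.12 and 0.14 and none called by edgeR or DESeq2 (none past an unadjusted p of 0.05 from edgeR).

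Of 17 regulators of fatty acid synthesis, edgeR called none, and 2 had an unadjusted p under 0.05, both of them higher. Over all genes, 6.25% were higher and 3.73% lower at that unadjusted p from edgeR. Srebf1, which encodes SREBP-1, had 88.4, 105 and 87.9 CPM after vehicle and 124, 110.1 and 119 CPM after PCN. Its groups did not overlap, and its log2 fold change of 0.33 did not pass (95% confidence interval 0.10 to 0.55, adjusted p = 0.378 from edgeR, 0.247 from DESeq2). Pparg, a nuclear receptor of lipid storage that colonocytes also express, had 87.3, 91.2 and 66.9 CPM after vehicle and 116, 122 and 135 CPM after PCN. It rose by DESeq2 (adjusted p = 0.0182), and edgeR gave 0.60 (95% confidence interval 0.31 to 0.90, adjusted p = 0.217). The sums of fat cell genes, given above, overlapped between the groups. The part of fat cells in the Pparg values was not tested.

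The median log2 fold change of the regulators was -0.10, and 13 of 17 were negative. Srebf2, the regulator of cholesterol synthesis, had 0.25 (adjusted p = 0.567 from edgeR), Nr1h3, which encodes liver X receptor α, -0.30 (adjusted p = 0.7002), Mlxipl, the carbohydrate response factor ChREBP, -0.10 (adjusted p = 0.880), and Nr1i2, the gene of PXR, -0.20 (adjusted p = 0.593), all from edgeR and none passing. Insig1, which holds SREBPs in the endoplasmic reticulum and is itself an SREBP target, had 56.1, 134 and 68.4 CPM after vehicle and 86.0, 76.1 and 71.8 CPM after PCN. Vehicle replicate 5 was thus the highest of the 6 libraries for Insig1, as for Elovl1 and Elovl4, and the lowest for Fasn, Scd1 and Fads1. Insig1, like Mlycd, Hacd2 and Cd36, lies outside the rule for naming genes and was chosen after its values were seen.

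Downstream, 19 genes of fatty acid activation, uptake and glycerolipid synthesis had a median log2 fold change of -0.0092, and none was called by edgeR or DESeq2. At an unadjusted p under 0.05 from edgeR, 6.25% of all genes were higher and 3.73% lower. Of the 19, Agpat1, an acyltransferase of phosphatidic acid synthesis, was higher by this criterion (0.35, adjusted p = 0.465 from edgeR). By the same criterion Agpat3, of the same family, and Dgat1, which makes triglyceride, were lower (-0.28 and -0.25, adjusted p = 0.393 and 0.479). Agpat3 had 92.3, 103 and 94.7 CPM after vehicle and 73.5, 82.4 and 82.8 CPM after PCN, without overlap. Cd36, the fatty acid transporter that PXR raises in mouse liver, had 58.4, 23.7 and 55.5 CPM after vehicle and 36.3, 38.9 and 48.5 CPM after PCN, and its groups overlapped.

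**Figure D4:**
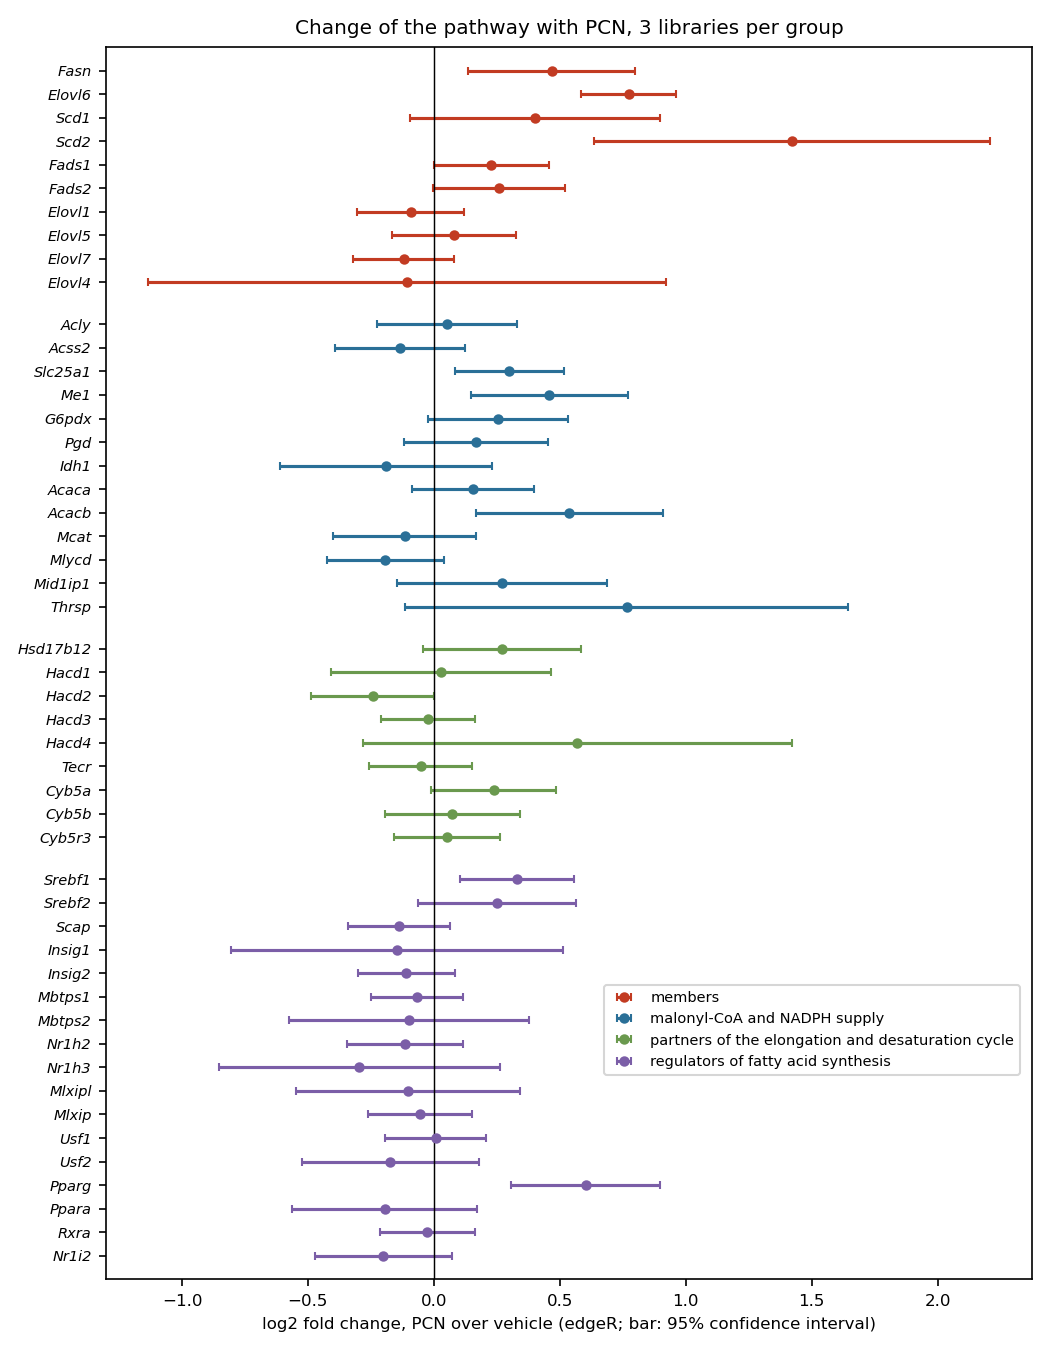
Log2 fold change of PCN over vehicle with its 95% confidence interval from edgeR for the 10 members and for the tested genes of 3 lists, in colours by list, 3 libraries per group. Scd2 (1.423) and Elovl6 (0.77) lie farthest right among the members, and Pparg (0.60) lies farthest right among the regulators. Elovl6 was picked because it rose, so its interval is a description and tests nothing.

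Marker genes of other cell types of the colon were summed beside these genes. Over all tested genes, 51.6% had a positive log2 fold change, and 8.69% were higher and 7.39% lower without overlap. The summed CPM of 10 immune cell genes was 307 to 727 after vehicle and 878 to 1447 after PCN, with all 10 higher on average, and of these genes only Jchain, which marks plasma cells, did not overlap between the groups. Without Jchain, a choice made after its values were seen, the other 9 summed to 93.1 to 243 CPM after vehicle and 188 to 262 CPM after PCN, overlapping. The sum of 8 fibroblast genes was 1213 to 1514 CPM after vehicle and 1686 to 2130.2 CPM after PCN, with 7 of 8 higher on average. The sum of 12 small intestine enterocyte genes was 360.2 to 626 after vehicle and 402 to 463 after PCN, with 10 of 12 lower on average and a median log2 fold change of -0.56 over the 10 tested. Enpep, a brush border peptidase, fell (log2 fold change -1.53, adjusted p = 0.0262 from edgeR), and Apoa1 and Mttp were also lower after PCN without overlap. The 8 genes of squamous epithelium summed to 5.27 to 8.28 CPM after vehicle and 4.58 to 11.8 CPM after PCN, overlapping. Of these 8, 5 were higher on average after PCN, and 6 averaged under 1 CPM. The 11 epithelial genes summed to 22852 to 29398 CPM after vehicle and 31874 to 38241 CPM after PCN, without overlap. Muc2, the main mucin of goblet cells, was higher in every PCN library and rose by DESeq2 (adjusted p = 0.0305), with an adjusted p of 0.344 from edgeR. Muc2 was then left out, a choice made after its values were seen. The other 10 epithelial genes summed to 12350.3, 9846 and 8786 CPM after vehicle and 12498, 11526 and 12078 CPM after PCN. These sums overlapped through vehicle replicate 3 alone. Their part in the values of the 10 members was not tested.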

How the data were processed

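RNA-seq of colon from 3 vehicle and 3 PCN libraries was analysed from the deposited read counts per gene, which the authors made with the STAR aligner and HTSeq after adapters and low-quality reads were removed. Whether strand was used is not stated. The study's methods name a pig assembly, the labels name mm10, and the identifiers are mouse Ensembl identifiers. The FPKM deposited by the authors are counts per gene length and library size. The deposited fold changes and p-values of the authors' comparison were not used. All columns of per-library values belong to these 6 libraries.

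Genes were filtered with filterByExpr (minimum count 10, minimum total 15), scaled by TMM and tested with edgeR 4.0.16 in R 4.3.3 over 16586 genes, at an adjusted p under 0.05. Alternatives were DESeq2 1.42.0, RLE scaling, no filter, a replicate block, limma 3.58.1 on log2(FPKM + 1) and log2(FPKM + 0.1), and each library left out. The pipeline was tested on simulated data. Coordinates came from GENCODE M21 (GRCm38) by identifier. The deposited coordinates were not used. Likeness to Elovl6 was taken on log2(CPM + 0.5). Members, lists and tests were chosen with earlier results of these data known. The rule named the members, up to 4 genes per list with the smallest edgeR p among those under an unadjusted 0.05, a fixed set of pathway and PCN response genes, and the 5 genes nearest to Elovl6. Depth was 21924026 to 25422856 counts per library.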

Additional observations from a re-analysis of the deposited data

How the results depend on the processing

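The direction of the log2 fold change held in all alternatives for 8 of the 10 members. It turned for Elovl4, the gene with the fewest counts, to 0.048 with the replicate block and between -0.34 and 0.22 with 1 library left out, and for Elovl5 to -0.00059 with the replicate block. Elovl6 was 0.69 with limma on log2(FPKM + 1) against 0.77 with edgeR. Over all genes, edgeR's 5 higher and 1 lower became 171 and 43 with DESeq2, 25 and 2 with no filter, and 64 and 10 with the replicate block, and 3 higher with limma on log2(FPKM + 0.1). With 1 library left out they ranged from 0 to 21 higher and from 0 to 2 lower. The 9 members other than Elovl6 had no call in any of these. Elovl6 was picked because it rose in this comparison, so whether it was called is a description and tests nothing. It was called with edgeR on all 6 libraries, with DESeq2, with RLE scaling and with no filter. It was not called with the replicate block or with limma at either pseudocount. With 1 library left out, it was called only without vehicle replicate 3. The replicate numbers 5 and 6 occur in both groups. Vehicle replicate 3 and PCN replicate 4 have no partner, so the log2 fold changes with the replicate block rest on replicates 5 and 6 alone. Deviations of same-numbered libraries from their group means correlated at -0.16 and -0.11 across genes, so these libraries were not treated as pairs in the main fit. The cause of the shifts between settings was not tested. Elovl2, Elovl3 and Scd3 had too few counts for a test.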
